A study of Mus musculus with 4 samples.

Results

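The genes described here encode the proteins of the cytosolic ribosome, as they were measured in RAW264.7 macrophages under 4 conditions. They were chosen by gene symbol alone, as every Rpl or Rps gene with a number, together with Rplp0, Rplp2 and Rpsa, and without the Rps6k kinases, the pseudogenes and Rps4y. On probe sets that carry a single symbol this gave 48 genes with 104 probe sets, out of 18194 genes with 34958 probe sets. By prefix, 26 are Rpl genes of the large subunit and 22 are Rps genes of the small subunit (Rpsa included), and they lie on 17 chromosomes.

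Ribosomes are built from ribosomal RNA and a fixed set of proteins, most of which are needed in equal numbers, so the genes for these proteins are known as one of the most evenly expressed groups in mammalian cells. Many of their mRNAs begin with a C followed by a run of pyrimidines, the terminal oligopyrimidine (TOP) motif, through which their translation is controlled by the kinase mTOR and the RNA-binding protein Larp1. Hypoxia is known to restrain mTOR and protein synthesis in many cell types, in large part at the level of translation, which an array of total mRNA does not read.

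RAW264.7 is a mouse macrophage line transformed by the Abelson leukemia virus, so it stands for 1 established line and not for tissue macrophages. For 4 days the cells were cultured in normoxia without IL6 (NC) or with it (NC+IL6), or in hypoxia without IL6 (HC) or with it (HC+IL6). The hypoxic gas held 1% oxygen. IL6 is a cytokine whose receptor activates STAT3, and its dose was 25 ng/ml. Total RNA of each condition was hybridized to 1 Affymetrix array, so differences cannot be set against a spread between replicates, p-values are left out, and precision is limited by the number of arrays.

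Values are deposited log2 signals, and for each gene the probe set with the highest mean over the 4 arrays was taken. Signals of different probe sets are not comparable as transcript levels, so genes are compared between arrays and not with each other. The background floor of an array, set by 99 probe sets for genes of other tissues at their 95th percentile, was a log2 signal of 6.36 to 6.72. Of 10 macrophage markers, 9 or 10 were above it on every array, and of 14 markers of other cell types 1 was above it in NC and 0 on the other arrays. The ratio of 3' to 5' signal was 1.41 to 1.73 for actin and 0.87 to 0.93 for Gapdh.

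To show the TOP motif in these genes, the start of transcription was read from RefSeq promoters (GRCm38.p6), which hold 50 entries for 42 of the 48 genes. A C at the annotated start followed by at least 4 further C or T, read on the strand of the gene only, was found in 8 of the 50 entries (16%), against 2.5% of all 32851 promoters. A run of at least 8 C or T anywhere from 20 bases before to 50 bases after the start, which can overlap the first motif, was found in 32 (64%), against 25.4%. These are matches of letters, and a start annotated a base away from the true one hides a tract at the start. The 8 entries with a tract at the start are shown with 10 bases before and 20 after the start, and the tract is in capitals.
Rpl14 (chr9:120571507-120571536, plus strand): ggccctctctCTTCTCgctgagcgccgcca
Rpl35 (chr2:39005112-39005141, minus strand): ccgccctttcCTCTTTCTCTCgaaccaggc
Rpl38 (chr11:114668570-114668599, plus strand): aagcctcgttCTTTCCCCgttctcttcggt
Rplp2 (chr7:141447641-141447670, plus strand): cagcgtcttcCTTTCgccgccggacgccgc
Rps10 (chr17:27635225-27635254, minus strand): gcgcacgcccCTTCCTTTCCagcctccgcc
Rps18 (chr17:33955646-33955675, minus strand): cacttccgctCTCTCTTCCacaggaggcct
Rps27 (chr3:90213629-90213658, minus strand): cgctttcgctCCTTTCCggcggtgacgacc
Rps6 (chr4:86857348-86857377, minus strand): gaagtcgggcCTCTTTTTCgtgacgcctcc

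The windows of Rpl27a and Rpl7l1, whose signals are described below, hold no such tract at the annotated start and have no capitals. The window of Rpl27a has an unbroken run of 20 C or T across the start and misses the rule because the annotated first base is T, whereas that of Rpl7l1 has no such run.
Rpl27a (chr7:109519185-109519214, plus strand): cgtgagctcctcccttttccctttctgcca
Rpl7l1 (chr17:46782637-46782666, minus strand): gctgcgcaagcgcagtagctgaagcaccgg

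Of the 48 genes, 44 were above the floor on all 4 arrays and 4 were below it on all 4. Among the 44, 34 formed a bright block with a mean log2 signal of 14 or more, a limit chosen after the values were seen. The lowest of them, Rps26, a protein of the small subunit, had a mean of 14.53, and the first gene outside, Rpl22l1, had 13.99. The block lay at the top of the arrays, since 32 of the 34 genes were within 1 log2 unit of the brightest probe set on each array. Differences at this end of the scale can be compressed, which was not tested. Rps29, a small-subunit protein, was the brightest, with 15.71 (NC), 15.54 (NC+IL6), 15.70 (HC) and 15.69 (HC+IL6), followed by Rps18 and Rpl13a, with means of 15.51 and 15.49.

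The bright genes hardly differed between the conditions. The range of a gene over the 4 arrays was 0.11 to 0.34 log2 units, with a median of 0.20. The median log2 signal of the block was 15.21 (NC), 15.02 (NC+IL6), 15.17 (HC) and 15.17 (HC+IL6), so that 3 arrays were close together and NC+IL6 lay below them.

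**Figure D1:**
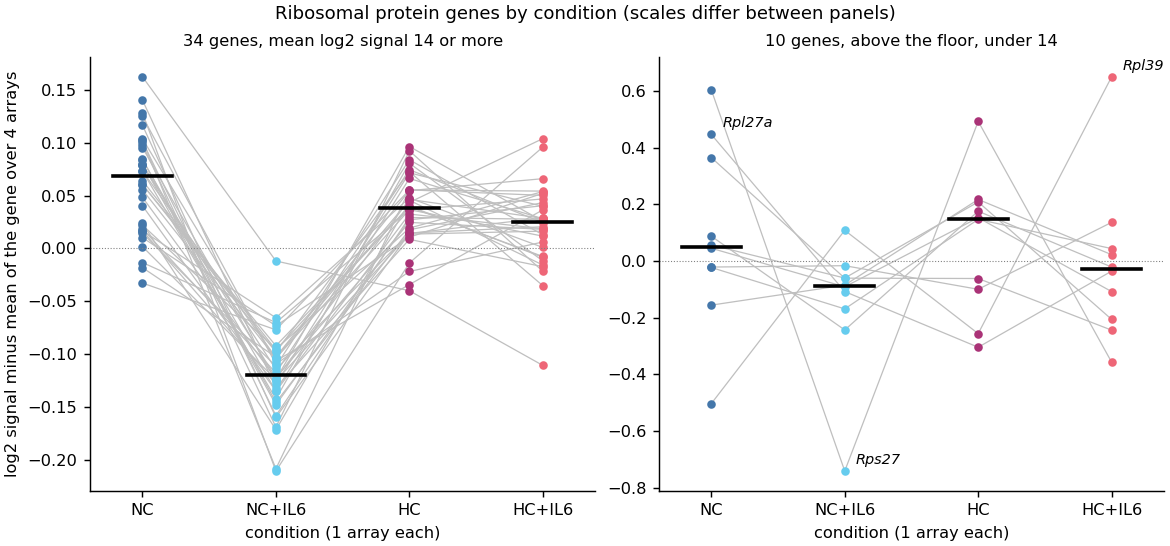
Log2 signal of each ribosomal protein gene minus the mean of that gene over the 4 arrays, by condition, for the 34 bright genes (left) and the 10 dimmer genes above the floor (right, wider scale). Grey lines join the values of 1 gene and black bars are medians. In the bright block NC+IL6 is the lowest array for 33 of 34 genes, and on the right Rps27 is lowest in NC+IL6, Rpl39 highest in HC+IL6 and Rpl27a highest in NC.

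In the deposited values the block in hypoxia without IL6 lay close to its level in normoxia. Comparing HC with NC macrophages, the median log2 ratio of the 44 genes was -0.01, with quartiles of -0.07 and 0.06, and 19 genes were higher and 25 lower by any amount. The median of all 10011 genes above the floor was 0.05, with quartiles of -0.26 and 0.38. None of the 44 genes was 2-fold higher and none 2-fold lower, against 3.75% and 1.06% of all genes tested. With cyclic loess scaling the block median was 0.18 and 33 of the 34 bright genes were higher in HC. The absence of a shift thus depends on how the arrays were scaled.

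In the presence of IL6 the block was slightly higher in hypoxia, relative to the NC+IL6 array whose low signals are described below. Comparing HC+IL6 with NC+IL6, the median log2 ratio was 0.14 with quartiles of 0.11 and 0.17, and 40 genes were higher and 4 lower. Of the bright genes 33 of 34 were higher, against 50% of the other 166 genes that reached the signal limit of the block. Those 166 genes were not matched to the block in signal. The exception in the block was Rps27l, a paralog of Rps27, at -0.10. No gene passed 2-fold in either direction, against 3.22% of all genes higher and 1.45% lower. The median was 0.24 with cyclic loess and 0.00 with quantile normalization. Ribosomal protein symbols fill 120 of the 200 brightest probe sets, and quantile normalization makes the top of every array equal, so it removes most of a shared shift of the block by construction.

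The same array, NC+IL6, set apart the comparison of IL6 with control in normoxia. The median log2 ratio of NC+IL6 over NC was -0.17 (a fold of 0.89), with quartiles of -0.23 and -0.13, and 3 genes were higher and 41 lower. All 34 bright genes were lower in NC+IL6, against 70.5% of the other 166 bright genes. Of the bright genes 33 of 34, or 97.1%, had their lowest signal in NC+IL6, against 28.9% of the other bright genes and 27.7% of all genes. Rps4x, a small-subunit protein encoded on the X chromosome, had the largest of these differences, with 15.44 (NC), 15.10 (NC+IL6), 15.30 (HC) and 15.41 (HC+IL6). Its signal in NC+IL6 was the lowest and that in HC+IL6 was near the control.

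The highest log2 signal of any probe set was 15.54 in NC+IL6 and 15.69 to 15.71 on the other arrays. On every array this was Rps29, a member of the block, so it only repeats the shift of the block. Controls from outside the cells moved the same way. The Cre spike-in control is added to the labelled sample and does not come from the cells. Its 4 probe sets had signals within the span of the block, but their medians were below those of the block. These medians were 14.80 (NC), 14.63 (NC+IL6), 14.72 (HC) and 14.73 (HC+IL6) on the log2 scale. The log2 ratios of these 4 probe sets were -0.22 to -0.12 for NC+IL6 over NC, a range that holds the median of the block. For HC+IL6 over NC+IL6 they were 0.05 to 0.15, which holds the block median of 0.14 in that comparison. For HC over NC they were -0.11 to -0.06. All 18 spike-in probe sets ran from -0.29 to 0.04 for NC+IL6 over NC, with a median of -0.13 and 17 below 0. The 2 next brightest after Cre had -0.09 and -0.06, short of the block, and the one after these had -0.215, beyond it. After quantile normalization, with the limit given above, the median ratio of the 44 genes for NC+IL6 over NC was -0.04, and NC+IL6 was the lowest array for 8 of the 34 bright genes. After cyclic loess it was -0.12 and 32 of 34. An effect of IL6 on the block and an offset of this array cannot be told apart. The same holds for an effect of hypoxia in HC+IL6 over NC+IL6, which uses the same array.

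IL6 in hypoxia gave no such shift. Comparing HC+IL6 with HC, the median was -0.02 with quartiles of -0.07 and 0.01, 16 genes were higher and 28 lower, and the median of all genes was -0.02. None passed 2-fold, against 2.41% of all genes higher and 1.96% lower. With IL6 in normoxia 3.44% of all genes were 2-fold higher and 1.22% lower, and among the 44 genes 0 were higher and 1, Rps27, was lower. The comparisons share arrays pairwise, so their medians are not independent of each other.

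Both subunits had similar medians. The bright Rpl genes and the bright Rps genes, 17 of each, had medians of 0.14 and 0.14 for HC+IL6 over NC+IL6 and of -0.21 and -0.17 for NC+IL6 over NC. The P-stalk, which recruits the elongation factors to the large subunit, was represented by Rplp0 and Rplp2. Rplp0 had 14.98 (NC), 14.86 (NC+IL6), 14.97 (HC) and 15.01 (HC+IL6). Rplp2 had 15.46, 15.15, 15.41 and 15.41 in the same order, and both were lowest in NC+IL6. Rplp1 was not analysed here.

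**Figure D2:**
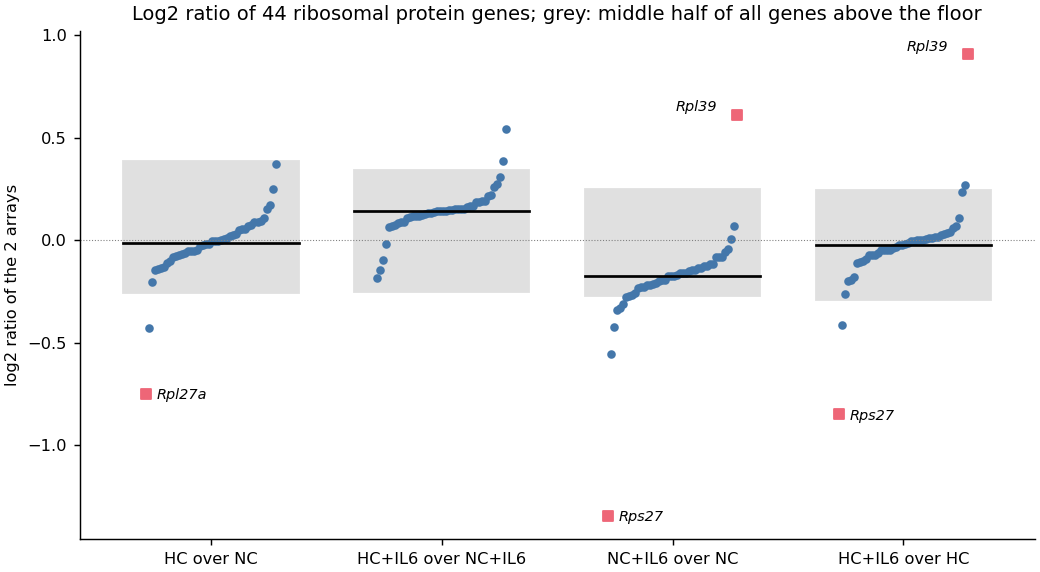
Log2 ratio of the 44 ribosomal protein genes above the floor in each comparison, in rising order, with 1 array on each side. Black bars are the medians (-0.01, 0.14, -0.17 and -0.02), grey boxes span the quartiles of all genes above the floor, and red squares are the genes 1.5-fold or more away from the median of the block.

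A few genes left the block, each as read by a dim probe set. A gene was counted as off the block when its log2 ratio lay 0.58 or more (1.5-fold) from the median of the 44. In HC over NC this was 1 gene, Rpl27a, in HC+IL6 over NC+IL6 it was 0, and in each IL6 comparison it was Rpl39 and Rps27. The same distance from the median of all genes was reached by 23.2% of all genes in HC over NC, by 22% in HC+IL6 over NC+IL6, by 18.7% in NC+IL6 over NC and by 19.8% in HC+IL6 over HC. All 3 genes are outside the bright block, the brightest being Rpl27a with a mean log2 signal of 9.81. Ratios spread more at such signals, with an SD for HC over NC of 0.55 over the 23 dimmer probe sets of the ribosomal protein genes and of 0.08 over the 66 bright ones. No bright probe set with a single symbol read Rpl27a, Rpl39 or Rps27. Whether these 3 genes or only their dim probe sets left the block was not tested.

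Rps27, a zinc-finger protein of the small subunit whose promoter window above has a start tract, had log2 signals of 9.86 (NC), 8.52 (NC+IL6), 9.75 (HC) and 8.90 (HC+IL6). Both arrays with IL6 were below both arrays without it. It was 2.54-fold lower in NC+IL6 than in NC and 1.802-fold lower in HC+IL6 than in HC, and these ratios changed little with scaling (-1.35, -1.30 and -1.32 on the log2 scale for the first as deposited, with quantile normalization and with cyclic loess). Only 1 probe set with a single symbol read Rps27. Probe sets with several symbols were not searched for a second one.

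Its paralog Rps27l, known as a target of p53, did not share this pattern. Rps27l had 14.97 (NC), 14.80 (NC+IL6), 14.77 (HC) and 14.70 (HC+IL6), highest in NC. The ratio for HC over NC was -0.20, the lowest among the bright genes, and the other 2 probe sets of Rps27l had -0.22 and -0.17. With cyclic loess the ratio of Rps27l was 0.00 and the median of the 44 genes was 0.18, so Rps27l still lay below the block.

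Rpl39, a small protein lining the exit tunnel of the large subunit, went the other way. Its log2 signals were 7.61 (NC), 8.22 (NC+IL6), 7.85 (HC) and 8.76 (HC+IL6), so both arrays with IL6 were above both without it. It was 1.53-fold higher in NC+IL6 than in NC and 1.87-fold higher in HC+IL6 than in HC, the latter reaching a log2 ratio of 1.005 with quantile normalization, just past 2-fold. Among probe sets with a single symbol this was the only one for Rpl39, and it was above the floor on all 4 arrays. Those with several symbols were not searched for another.

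Rpl27a, a protein of the large subunit, had 10.26 (NC), 9.71 (NC+IL6), 9.51 (HC) and 9.78 (HC+IL6). NC was the highest array and the other 3 were close together. It was 1.68-fold lower in HC than in NC, while the ratio for HC+IL6 over NC+IL6 was 0.07. A second probe set of Rpl27a lay below the floor on all 4 arrays.

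Rpl7l1, a paralog of Rpl7 that is known to act in ribosome assembly, was the dimmer gene nearest to the limit after these 3. It had 11.97 (NC), 11.55 (NC+IL6), 11.55 (HC) and 11.37 (HC+IL6), highest in NC. The log2 ratio was -0.43 for HC over NC and -0.43 for NC+IL6 over NC. For HC over NC the other 2 probe sets had -0.36 and -0.05, so they differed in size.

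Its partner Rpl7 stayed in the block, with 15.03, 14.99, 15.12 and 15.12. Rpl22l1, the paralog of the RNA-binding protein Rpl22, had 14.04, 13.90, 14.14 and 13.88, and Rpl22 had 15.34, 15.25, 15.41 and 15.42, in the order NC, NC+IL6, HC, HC+IL6. In hypoxia Rpl22l1 was lower with IL6 than without, at -0.26, and Rpl22 was at 0.01.

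Of the other dimmer genes, Rpl37, a zinc-binding protein of the large subunit, had 12.04 (NC), 12.11 (NC+IL6), 12.41 (HC) and 12.21 (HC+IL6). Both arrays in hypoxia were above both in normoxia, with log2 ratios of 0.37 without and 0.11 with IL6. Rps6, the substrate of the S6 kinases that mTOR activates, had 9.55, 9.22, 9.64 and 9.44 and was lowest in NC+IL6. Rps25, a small-subunit protein used by viral internal ribosome entry sites, had 12.25, 12.25, 12.17 and 12.41 and was highest in HC+IL6. Rpl12 and Rpl14 spanned ratios of -0.41 to 0.21 over the 4 comparisons.

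The 4 genes below the floor on every array were Rpl3l, a paralog of Rpl3 restricted to heart and skeletal muscle, Rpl39l, a paralog of Rpl39 known from testis, Rps4l and Rps16. Rps16 belongs to every ribosome. Its only probe set with a single symbol had log2 signals of 2.01, 4.36, 4.48 and 0.87, so that probe set gave no measurement of the gene. No fold is given for these 4.

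Several genes of the block also had dim probe sets, and some of these differed where the bright ones did not. Of the 104 probe sets 66 had a mean log2 signal of 14 or more, 23 were dimmer and above the floor on at least 1 array, and 15 were never above it. The bright probe sets had ratios from -0.22 to 0.15 for HC over NC and from -0.20 to 0.31 for HC+IL6 over NC+IL6, and none reached 2-fold. Of the 23 dimmer ones 2 passed 2-fold toward HC over NC and 3 toward HC+IL6 over NC+IL6, and 0 passed it in the other direction. Of all probe sets chosen the same way (above the floor on at least 1 array, mean under 14) 4.12% and 1.08% were 2-fold higher and lower in HC over NC, and 4.23% and 1.37% in HC+IL6 over NC+IL6. The member probe sets past 2-fold were singled out after their values were seen. Of the bright probe sets 6 of 66 had the plain suffix _at, against 16 of the 23 dimmer ones, and the other suffixes mark probes that can match several transcripts. How far related transcripts add to the bright signals was not tested.

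For Rpl22, a dim probe set had 8.31 (NC), 7.79 (NC+IL6), 10.04 (HC) and 9.10 (HC+IL6). Both arrays in hypoxia were above both in normoxia, and it was 3.33-fold and 2.46-fold higher without and with IL6. The 2 bright probe sets of Rpl22 had log2 ratios of 0.07 and 0.10 for HC over NC and of 0.17 and 0.23 for HC+IL6 over NC+IL6.

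For Rps24, a small-subunit protein with alternatively spliced ends, a dim probe set had 8.52 (NC), 8.68 (NC+IL6), 9.88 (HC) and 9.68 (HC+IL6). Again both hypoxia arrays were the higher ones, with log2 ratios of 1.36 and 1.0002, whereas the 4 bright probe sets of Rps24 had log2 ratios from -0.02 to 0.15 for HC over NC.

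For Rpl41, the smallest of these proteins, one dim probe set had 8.56, 8.19, 9.05 and 9.27 in the order above and a 2.11-fold difference between HC+IL6 and NC+IL6. A second had 8.14, 8.05, 8.92 and 8.77, and both were higher in hypoxia. The 2 bright probe sets of Rpl41 had 0.14 and 0.12 for HC+IL6 over NC+IL6. What part of the transcript the dim probe sets read was not tested.

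**Figure D3:**
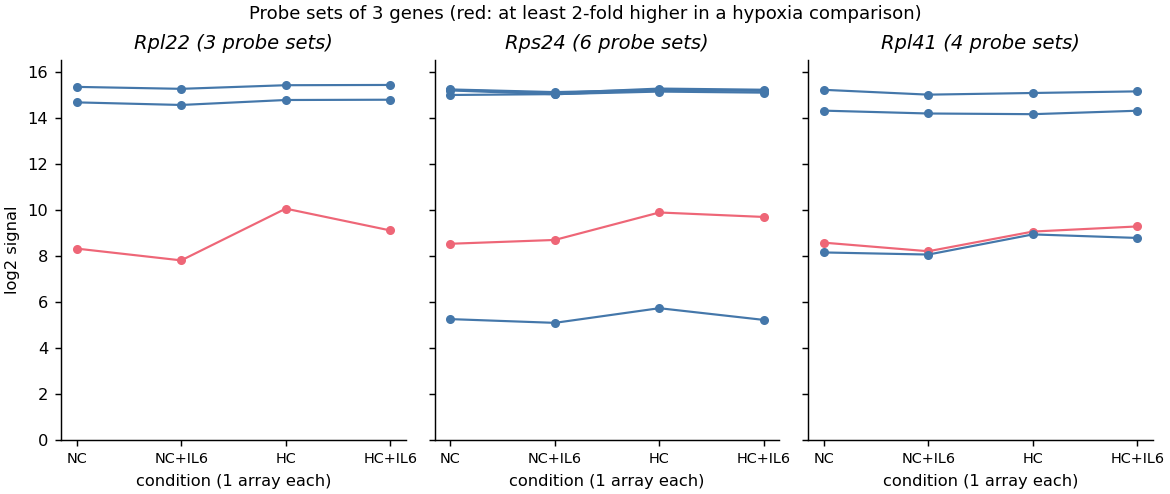
Log2 signal of every probe set of Rpl22, Rps24 and Rpl41 on the 4 arrays, with 1 line per probe set. Red lines are probe sets at least 2-fold higher in hypoxia in at least 1 of the 2 hypoxia comparisons, and they lie at log2 signals of 7.79 to 10.04, below the flat lines of the bright probe sets of the same genes.

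Genes whose products work with the ribosomal proteins were set beside them. Of 19 genes for elongation factors and other TOP mRNAs, none passed 2-fold in any comparison. Of all genes 2.41% to 3.75% were higher and 1.06% to 1.96% lower, so for a list this short the count says little. The medians were 0.00 for HC over NC, 0.11 for HC+IL6 over NC+IL6, -0.16 for NC+IL6 over NC and -0.06 for HC+IL6 over HC, close to those of the block. Eef1a1, which brings aminoacyl-tRNA to the ribosome, had 15.36 (NC), 15.12 (NC+IL6), 15.24 (HC) and 15.29 (HC+IL6), lowest in NC+IL6 like the block. The genes of this list furthest from 0 in hypoxia were Eif4a2, a helicase of translation initiation, at 0.70 without and 0.77 with IL6, and Eef1d, an exchange factor for Eef1a1, at -0.48 and -0.35. Fau and Rps3a1, ribosomal protein genes whose symbols fall outside the rule, had 0.08 and 0.00 for HC over NC and -0.14 and -0.20 for NC+IL6 over NC.

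Genes for the assembly of ribosomes were placed differently. Of 40 ribosome biogenesis genes, all 40 had negative log2 ratios for HC over NC and 39 for HC+IL6 over NC+IL6, against 45.8% and 47.1% of all genes above the floor, with median log2 ratios of -0.47 and -0.43. Few passed 2-fold. In HC over NC it was Rrp12, an export factor of the pre-ribosome, at 2.28-fold lower, and in HC+IL6 over NC+IL6 it was Rrp9, a component of the U3 snoRNP, at 2.07-fold lower.

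Fbl, the methyltransferase of the box C/D snoRNPs, had 13.81 (NC), 13.41 (NC+IL6), 12.89 (HC) and 12.66 (HC+IL6). Both arrays in hypoxia were below both in normoxia, by 1.90-fold without and 1.68-fold with IL6. Nolc1, a chaperone of snoRNPs, was 1.77-fold and 1.72-fold lower, and Bop1, which processes the large-subunit precursor, 1.99-fold and 1.54-fold. Quantile normalization and cyclic loess gave medians of the list between -0.48 and -0.39 in the hypoxia comparisons.

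The 76 mitochondrial ribosomal protein genes had medians of -0.36 and -0.36 in the hypoxia comparisons. Of them 70 and 63 were lower in hypoxia, against 45.8% and 47.1% of all genes above the floor. In each comparison 1 gene was 2-fold lower (Mrpl38 and Mrpl37), against 1.06% and 1.45% of all genes tested. Averaging the probe sets of each gene moved the second median to -0.16. Neither list shifted this way with IL6 in hypoxia, at medians of -0.06 and 0.01, and with IL6 in normoxia they had -0.17 and -0.01. The cytosolic ribosomal protein genes thus had hypoxia medians of -0.01 and 0.14 where the biogenesis genes had -0.47 and -0.43, and with 1 array per condition this difference was not tested.

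Signal strength differed between these lists. The biogenesis genes had a median mean log2 signal of 11.50, far below the block. The 13 of them at 12 or more had medians of -0.42 and -0.28 in the hypoxia comparisons, against -0.11 and -0.07 for all 1072 genes between 12 and 14. The 24 mitochondrial ribosomal protein genes at 12 or more had -0.31 and -0.12, so that with IL6 they were close to all genes of that signal, with 16 of 24 lower against 635 of 1072. The brightest of the biogenesis genes, Ncl, the nucleolar protein nucleolin, had 14.67, 14.43, 14.26 and 14.21 and was 1.34-fold lower in HC than in NC. The 166 other genes with a mean log2 signal of 14 or more had a median of -0.14 for HC over NC and 0.00 for HC+IL6 over NC+IL6. They were not matched to the block in signal.

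**Figure D4:**
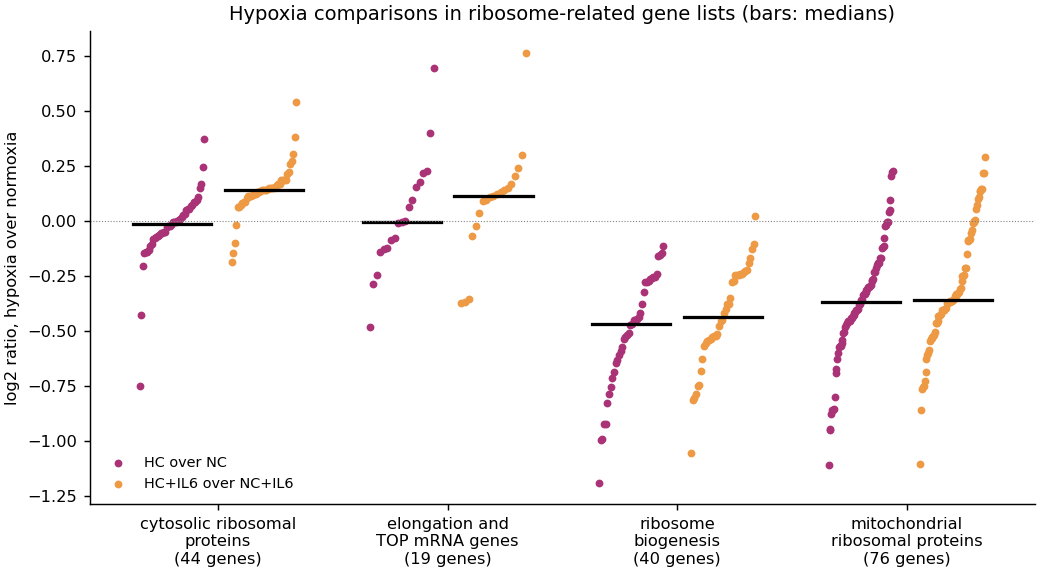
Log2 ratio of hypoxia over normoxia without IL6 (purple) and with IL6 (orange) for 4 lists of genes, 1 point per gene in rising order, with black bars at the medians. The cytosolic ribosomal protein and TOP mRNA genes centre near 0 to 0.14, and the biogenesis and mitochondrial ribosomal protein genes centre at -0.47 to -0.36.

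**Figure D5:**
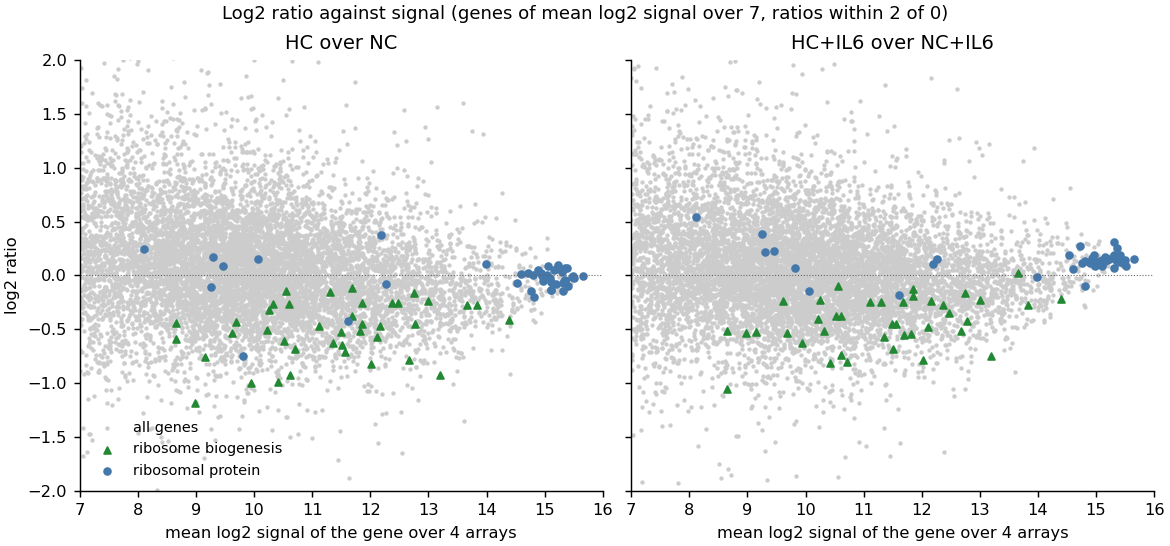
Log2 ratio against the mean log2 signal of each gene for HC over NC (left) and HC+IL6 over NC+IL6 (right), with all genes in grey, ribosome biogenesis genes as green triangles and ribosomal protein genes as blue circles. The bright block sits at 14.5 to 15.7 near 0 on the left and near 0.14 on the right, and most biogenesis genes lie below 0 at lower signal.

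Regulators of the pathway were mixed. Of 23 mTOR and MYC regulators above the floor, 2 passed 2-fold upward in HC over NC and none downward, against the 3.75% and 1.06% of all genes given above. The 2 genes called in HC over NC were Ddit4, an inhibitor of mTOR induced by stress, and Bnip3, a mitophagy receptor that binds Rheb. In NC+IL6 over NC, 4 of 22 tested genes of the list passed upward and 1 downward, against 3.44% and 1.22% of all genes. In HC+IL6 over HC it was 1 and 1 of 23, against 2.41% and 1.96%. Ddit4 had 9.15 (NC), 10.91 (NC+IL6), 10.80 (HC) and 10.76 (HC+IL6), so NC alone was low, and Bnip3 ranged from 12.40 in NC, also its lowest, to 14.35 in HC+IL6. For HC+IL6 over NC+IL6 the log2 ratios of Ddit4 and Bnip3 were -0.16 and 0.73. There 2 other genes passed 2-fold upward and none downward, against 3.22% and 1.45% of all genes. Myc, a transcription factor that drives ribosome production, had 5.31 (NC), 5.93 (NC+IL6), 7.35 (HC) and 7.38 (HC+IL6), under the floor on both normoxia arrays and above it on both hypoxia arrays. It was at least 2.03-fold higher with IL6 and, at a bound of at least 1.61-fold without IL6, not called there. Deptor, an inhibitor of mTOR, had 9.28, 8.22, 9.39 and 9.40, so that NC+IL6 alone was low.

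Probe sets that carry several symbols, of which 1 is a ribosomal protein, were left out of the block. There were 109 of them, 101 above the floor, and they covered 41 ribosomal protein symbols, 26 of which are read only there. Their median log2 ratios were 0.02, 0.17, -0.16 and -0.02 in the order HC over NC, HC+IL6 over NC+IL6, NC+IL6 over NC and HC+IL6 over HC, close to those of the block.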

How the data were processed

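The authors hybridized RNA of 4 conditions to 1 Affymetrix array each and deposited log2 signals of 45101 probe sets, summarized with MAS5 per the submitters' processing notes (no version is given in the sources used here). Each array has the same trimmed mean (500, with 2% left off on both sides). The labels do not say whether cultures were separate. Depth does not apply to arrays.

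From the deposited log2 values, ratios of 2 arrays were computed with Python 3.11.15, pandas 2.3.3 and numpy 2.4.6, and figures with matplotlib 3.10.9. Symbols came from a probe table (34958 probe sets with 1 symbol, 932 with several, 9211 not listed). All 48 member symbols matched RefSeq of GRCm38.p6. The floor rests on 56 of 64 listed genes. A call needed the brighter of both signals to exceed its floor and a fold of 2 or more, with a dimmer signal under its floor set to that floor. Quantile normalization and cyclic loess used limma 3.58.1 in R 4.3.3.

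Members, lists and the genes in them were chosen with earlier results of these data known, and no list is independent evidence. Named genes are those off the block, the 5 highest and lowest over the hypoxia and the IL6 comparisons, the 3 brightest and dimmest, the P-stalk, paralogs and their partners, and up to 6 genes of each other list. Beyond the rule, Rps26, Rps4x, Rps24, Rpl41, Eef1a1, Ncl and the mitochondrial genes were chosen after their values were seen. Of the rule, Rpl8, Rpl19, Rps9, Rps14 and Rpl11 are given only in the ranges of the block. Calculations were tested on simulated data.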

Additional observations from a re-analysis of the deposited data

Results flagged for a closer look

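Some log2 ratios had opposite signs under the same contrast, and with 1 array per condition none of these differences was tested. The median log2 ratio of the ribosomal protein genes in hypoxia was -0.01 without IL6, close to 0, and 0.14 with it, and the signs were not opposite with quantile normalization (0.00 and 0.00) or cyclic loess (0.18 and 0.24). For Rpl27a it was -0.75 without and 0.0721 with IL6, and for Rps27 -0.11 and 0.38. The log2 ratio of Rpl27a with IL6 was -0.55 in normoxia and 0.27 in hypoxia. Opposite signs between the hypoxia comparisons occurred in 25 of the 44 genes and between the IL6 comparisons in 15, mostly for ratios close to 0, and those are not listed singly. The same count over all genes was not made.

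Dim probe sets that were not used to represent their genes passed 2-fold. The one of Rpl22 had log2 ratios of 1.74 for HC over NC and 1.302 for HC+IL6 over NC+IL6. The one of Rps24 had 1.36 and 1.0002, and one of Rpl41 had 1.08 for HC+IL6 over NC+IL6. Among probe sets with several symbols, which are not named here, one had 1.004 for HC over NC, another 1.11 for HC+IL6 over NC+IL6 and another -1.06 for HC+IL6 over HC.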

How the results depend on the processing

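No paired analysis was possible because each condition has 1 array, and leaving out a replicate was not possible for the same reason. The block medians were judged against the spread between probe sets of one gene (SD 0.32, 0.24, 0.15 and 0.18). It is wider than the medians except for NC+IL6 over NC, where the median was -0.17, so keeping within it says little. Quantile normalization gave 0.00, 0.00, -0.04 and -0.02 for HC over NC, HC+IL6 over NC+IL6, NC+IL6 over NC and HC+IL6 over HC, and cyclic loess 0.18, 0.24, -0.12 and -0.07. The small counts of genes moved most. Averaging probe sets gave 1 gene past 2-fold and 4 off the block in HC over NC, 3 off the block in HC+IL6 over NC+IL6, and 1 and 5 in HC+IL6 over HC, and it moved Rpl27a to -1.48 and -0.58 in the hypoxia comparisons, through a second probe set under the floor. Without probe sets ending in _x_at or _s_at, 1 gene passed 2-fold and 3 were off the block in HC over NC, and 1 and 1 in HC+IL6 over NC+IL6. A floor at the median of the other-tissue genes gave 2 and 1 genes off the block in the hypoxia comparisons. Quantile normalization gave 1 gene past 2-fold in HC+IL6 over HC, Rpl39. At 1.5-fold in place of 2-fold, 1 gene passed in HC over NC and 2 in each IL6 comparison. At 1.3-fold from the median, 3 and 1 genes were off the block in the hypoxia comparisons, and at 2-fold 0 in HC over NC, 1 in NC+IL6 over NC and 0 in HC+IL6 over HC. The scaling of the other lists and of Rpl27a, Rpl39, Rps27, Rpl7l1, Rps27l and Rpl37 was chosen after seeing the data. In all, 162 alternative values stayed within the spread, or a count within 1.5 times, and 22 did not.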
